A study of Capra hircus with 9 samples.

Results

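Mammary tissue of Xinong Saanen dairy goats at dry-off, day 310 postpartum, was compared with tissue from lactation, day 100 postpartum. The comparison took in all 9131 transcripts of the authors' table of 9131, and 6 of the study's 9 samples, 3 from each of these stages. No genotype, diet or drug separates the groups in the labels, and all samples share breed and tissue. The labels give no animal numbers and are silent on whether the 3 samples of one stage are 3 animals, so the authors' p-values measure only the spread between these samples. Day and stage change together here and cannot be told apart.

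For each stage the authors give a mean RPKM (reads per kilobase of transcript, scaled to the mapped reads of a library), beside their p-value and false discovery rate (FDR) for each transcript. No value per sample and no sequencing depth was analysed here, so a mean is given without an SD and the precision from depth is unknown. A transcript was called when the authors' FDR was below 0.05. Direction and size came from log2((dry-off mean + 1)/(lactation mean + 1)), written below as the log2 ratio, and a fold is the same ratio on a linear scale. A pseudocount of 1 makes such folds smaller than the ratio of the means for low transcripts.

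In lactation, the luminal cells of the gland make milk proteins, lactose and fat and release them into the alveolar lumen under the influence of prolactin and oxytocin. When milk removal ends, milk synthesis stops, epithelial cells are shed or cleared, and leukocytes and stroma take up more of the gland. Cathepsins and other lysosomal enzymes, complement, plasminogen activators and metalloproteinases are well-known players in that remodelling.

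Means were higher in dry-off almost throughout the table. Of all 9131 transcripts, 8889 had the higher mean in dry-off and 240 had the lower. The authors' deposited table put 6079 of 9129 transcripts with a p-value at an FDR below 0.05, which is 66.6%. Of these, 6016 rose (65.9% of those tested, from 4207 assembled components) and 63 fell (0.69%, from 43 components). The median log2 ratio of all transcripts was 1.47, a 2.76-fold difference, with quartiles of 1.00 and 1.95. When each ratio was centred on that median, 3225 of the 6016 stayed above it and 2791 did not, so that 53.1% of calls were then on the higher side in place of 99.0%. The authors' calls were kept, and no transcript was tested against the median. Subtracting a median by itself brings such a split close to even. Counts above this median are therefore given beside the gene groups. The table median covers every transcript, while each gene or component of a list is stood for by its transcript of highest mean. Transcripts with a mean over both stages below 1 RPKM had a median log2 ratio of 0.62. The sets compared are therefore unlike, and the part of this in the counts was not tested. How the 9131 transcripts were chosen from all assembled ones was not stated in the sources read, and 8053 of them had an unadjusted p under 0.05 by the authors' deposited table, so the share called describes a selected table.

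**Figure D1:**
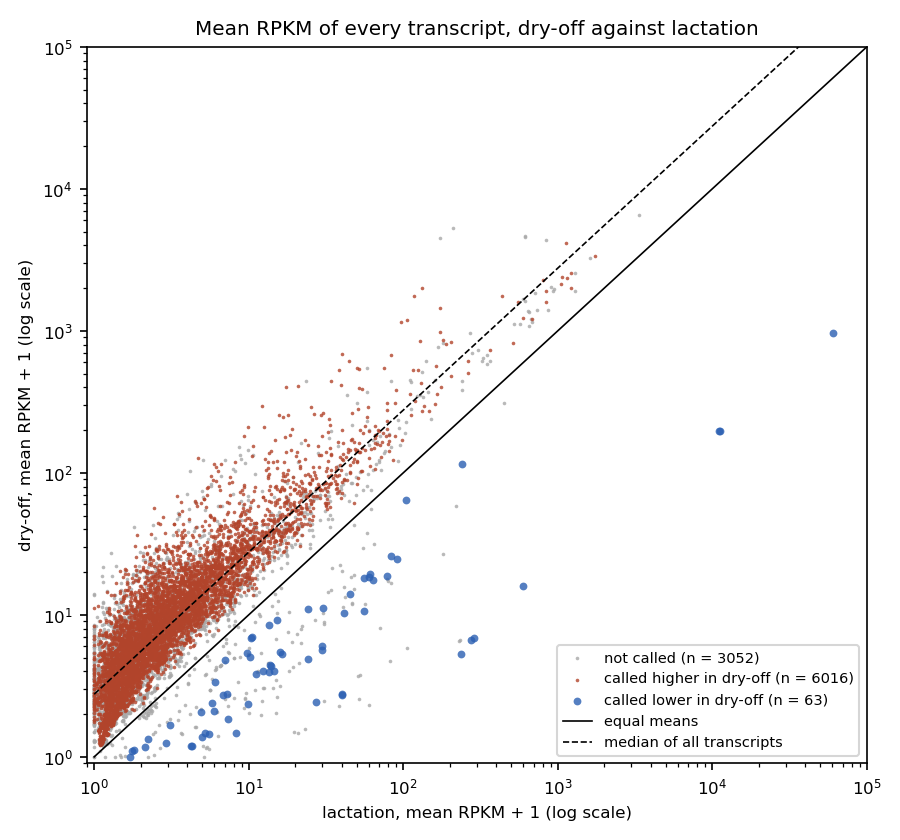
Each point is a transcript of the authors' table, with its lactation mean RPKM + 1 on the x axis and its dry-off mean RPKM + 1 on the y axis, both on log scales. Most points lie above the solid line of equal means and around the dashed line of the table's median log2 ratio of 1.47, while the 63 transcripts called lower lie below the line of equal means, with alpha-lactalbumin and 2 overlapping points for GLYCAM1 at the far right.

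Few transcripts held much of the summed lactation means. The shares below are of the selected table and not of a whole library. The 3 most abundant lactation transcripts held 49.9% of the lactation column's sum of means, and the top 10 held 56.9%. In dry-off the 10 most abundant held 16.8%. Summed over the table, the means came to 166944 RPKM in lactation against 258686 RPKM in dry-off, a ratio of 1.55. Without the 3 most abundant lactation transcripts the sums were 83622 and 257333 RPKM, a ratio of 3.08, and the top 10 then held 18.04% and 16.9%. RPKM is a share of a library, so these abundances move with every ratio in the table. Their part in the broad rise was not tested. In bulk tissue, fewer cells of a type and less RNA per cell cannot be told apart.

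Abundance also went with the share of calls. Among transcripts with a mean over both stages of 10 to 30 RPKM, 75.3% were called, against 59.8% below 1 RPKM and 45.7% of the 35 transcripts at 1000 RPKM or more. The median log2 ratio was 0.62 below 1 RPKM, 1.77 at 10 to 30 RPKM and 1.06 at 1000 RPKM or more. In lactation 193 transcripts were listed at 0, in dry-off 8. Many of the rises started low, since 2293 of the 6016 had a lactation mean below 1 RPKM and 347 had both means below 1 RPKM.

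The share called at a given size was also counted by direction. Of 2072 transcripts at least 4-fold higher in dry-off, 1401 were called (67.6%), while 17 of 56 at least 4-fold lower were (30.4%). With 10 RPKM or more in whichever stage was higher, the shares were 74.8% of 1272 and 32.6% of 46. At 16-fold or more, 22 of 35 higher and 7 of 14 lower transcripts were called. The difference between these shares was not tested.

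**Figure D2:**
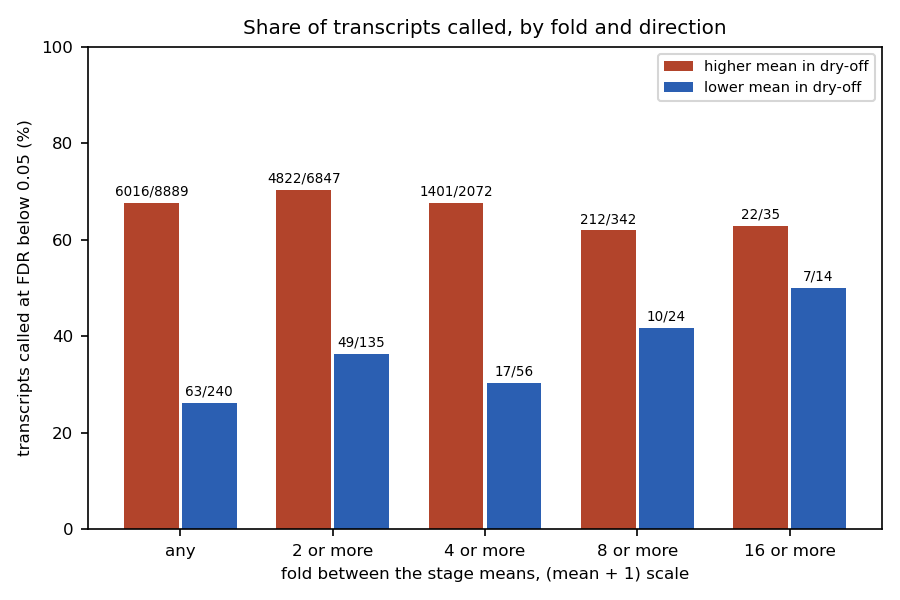
Bars give the percentage of transcripts called at an FDR below 0.05 by the authors, for transcripts at or above each fold on the (mean + 1) scale, split by the direction of the dry-off mean; the numbers above the bars are called over all. In each fold class the share called was larger for higher than for lower means, as in the 4-fold class with 67.6% and 30.4%.

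Milk secretion was the list with the lowest median. Of its 7 matched members, 5 fell and 1 rose, and the median log2 ratio was −3.80 beside 1.47 for the table. Alpha-lactalbumin, the lactose synthase subunit, was still at 960.4 RPKM in dry-off after 60951 RPKM in lactation. At a level per length, that left it above complement C3 (687 RPKM), one of the abundant transcripts that rose. One component described as xanthine dehydrogenase, an enzyme and structural protein of the milk fat globule membrane, also held 2 transcripts described as V-type H+-ATPase subunit I that fell. These went from 40.4 to 9.40 RPKM and from 23.3 to 10.02 RPKM, beside 55.0 to 9.74 RPKM for a xanthine dehydrogenase transcript of that component. V-ATPase subunit I transcripts of other components rose, among them one from 2.57 to 21.8 RPKM (FDR 0.0482 by the authors' deposited table).

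In the supply of lipid, members of one list differed in direction. For fatty acid uptake and activation, 6 of 13 members rose (46.2% beside 65.9% of all transcripts tested) and 2 fell. The median log2 ratio was 1.01, with 3 members above the table median. The falls were FABP3, a fatty acid carrier of the cytosol, from 592 to 14.96 RPKM, and lipoprotein lipase, which frees fatty acids from blood lipoproteins, from 39.3 to 1.72 RPKM. Long-chain acyl-CoA synthetases, which activate fatty acids, rose in 4 of 5 components; one went from 1.61 to 29.4 RPKM (FDR 0.00944 by the authors' deposited table). Both acetyl-CoA synthetase components, whose enzyme activates acetate, had lower dry-off means, 3.68 after 6.01 RPKM and 3.34 after 5.54 RPKM, with FDR of 0.136 and 0.135 by the authors' deposited table. Acetate is the main carbon source of milk fat synthesis in ruminants. Fatty acid synthesis and desaturation had 9 of 11 members called higher (81.8% beside 65.9% of all transcripts tested) and none called lower. Of the 11, 6 lay above the table median (list median 1.48). The list's summed means nevertheless went from 197 to 91.8 RPKM, most of the lactation sum being 1 desaturase component. Acetyl-CoA carboxylase also had a lower dry-off mean, 3.94 after 7.08 RPKM (FDR 0.141 by the authors' deposited table). Stearoyl-CoA desaturase, which adds a double bond, had one component at 179 and 25.9 RPKM that did not pass (FDR 0.102 by the authors' deposited table), and another that rose from 0.979 to 9.61 RPKM.

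Triacylglycerol synthesis also held members of either direction. Of 9 members 3 rose (33.3% beside 65.9% of all transcripts tested) and 2 fell, 3 lay above the table median, and the list median was 0.34. Glycerol-3-phosphate acyltransferase 1/2, which starts the pathway, fell in both components, from 28.9 to 5.01 RPKM and from 23.3 to 3.92 RPKM. Next in the pathway, 1-acylglycerol-3-phosphate acyltransferase had the lower dry-off mean in 2 of 3 components and none passed. The largest of these was at 33.0 RPKM in lactation against 14.001 RPKM in dry-off (FDR 0.130 by the authors' deposited table). Phosphatidate phosphatase, which makes diacylglycerol, rose in 3 of 3 components, one of them from 15.3 to 78.9 RPKM (FDR 0.0231 by the authors' deposited table). In membrane lipid synthesis, phosphatidylethanolamine N-methyltransferase, which makes phosphatidylcholine, was at 77.7 RPKM in lactation against 16.9 RPKM in dry-off with an FDR of 0.0526 by the authors' deposited table. Delta24-sterol reductase, a late enzyme of cholesterol synthesis, fell from 59.2 to 17.5 RPKM (FDR 0.0391 by the authors' deposited table).

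Beyond milk and lipid genes, the transcripts that fell were mixed in function. The 63 came from 38 descriptions and had a median log2 ratio of −1.67, a value that follows from being called lower. Hyaluronan synthase, which makes the matrix sugar hyaluronan, fell from 8.84 to 1.36 RPKM, 4.17-fold (FDR 0.00426 by the authors' deposited table). D-aspartate oxidase, a peroxisomal enzyme, fell from 6.32 to 0.862 RPKM. Cysteine dioxygenase, which opens the route from cysteine to taurine, fell in 3 transcripts of one component, the highest from 89.9 to 23.8 RPKM. Choline dehydrogenase, which converts choline towards betaine, fell from 3.91 to 1.08 RPKM.

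Several transport and signalling transcripts were among the falls. Monocarboxylate transporter SLC16A1, a carrier of lactate and ketone bodies, fell in 3 transcripts of one component, the highest from 4.81 to 1.39 RPKM. A sodium-solute symporter of the SSS family fell from 5.85 to 1.73 RPKM, and a cation efflux protein of the CDF family, whose members move zinc and other metals, fell from 2.10 to 0.690 RPKM. The glucose transporter family member SLC2A9, known in other mammals as a urate carrier, went from 0.702 RPKM to a listed 0. Such levels are near the bottom of the table. WNT5, a Wnt ligand, fell from 10.2 to 2.81 RPKM (FDR 0.00882 by the authors' deposited table). The neutrophil-attracting chemokine CXCL5/6 fell in 3 transcripts of one component, the highest from 12.7 to 3.43 RPKM. A tropomodulin, which caps actin filaments, fell from 13.6 to 3.02 RPKM, while another component of that description rose from 2.89 to 27.05 RPKM. A regulatory B subunit of protein phosphatase 2A fell in 2 components, from 3.32 to 0.196 RPKM and from 3.22 to 0.192 RPKM, and rose in another, from 8.52 to 45.3 RPKM. Vitamin K-dependent gamma-carboxylase, which modifies glutamate residues of secreted proteins, had the smallest call on the lower side, 6.08 to 3.80 RPKM (FDR 0.00520 by the authors' deposited table).

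Among transcripts at least 4-fold lower with 10 RPKM or more in lactation, a set chosen by its size of difference, 31 were not called. Peroxidase transcripts of one component were at 234 and 230 RPKM in lactation and at 5.66 and 5.52 RPKM in dry-off, with FDR of 0.0513 and 0.0508 by the authors' deposited table, just past the threshold. A Ca2+-transporting ATPase, a pump description that names no family member, was at 59.4 RPKM in lactation against 1.32 RPKM in dry-off (FDR 0.105 by the authors' deposited table). The cochaperone DNAJC12 was at 105 and 4.85 RPKM. Aquaporin-3, a water and glycerol channel, was at 69.5 and 7.07 RPKM, and syndecan, a heparan sulfate proteoglycan of the cell surface, at 78.9 and 16.5 RPKM. These means differ widely between stages, and the authors' test did not pass them.

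**Figure D3:**
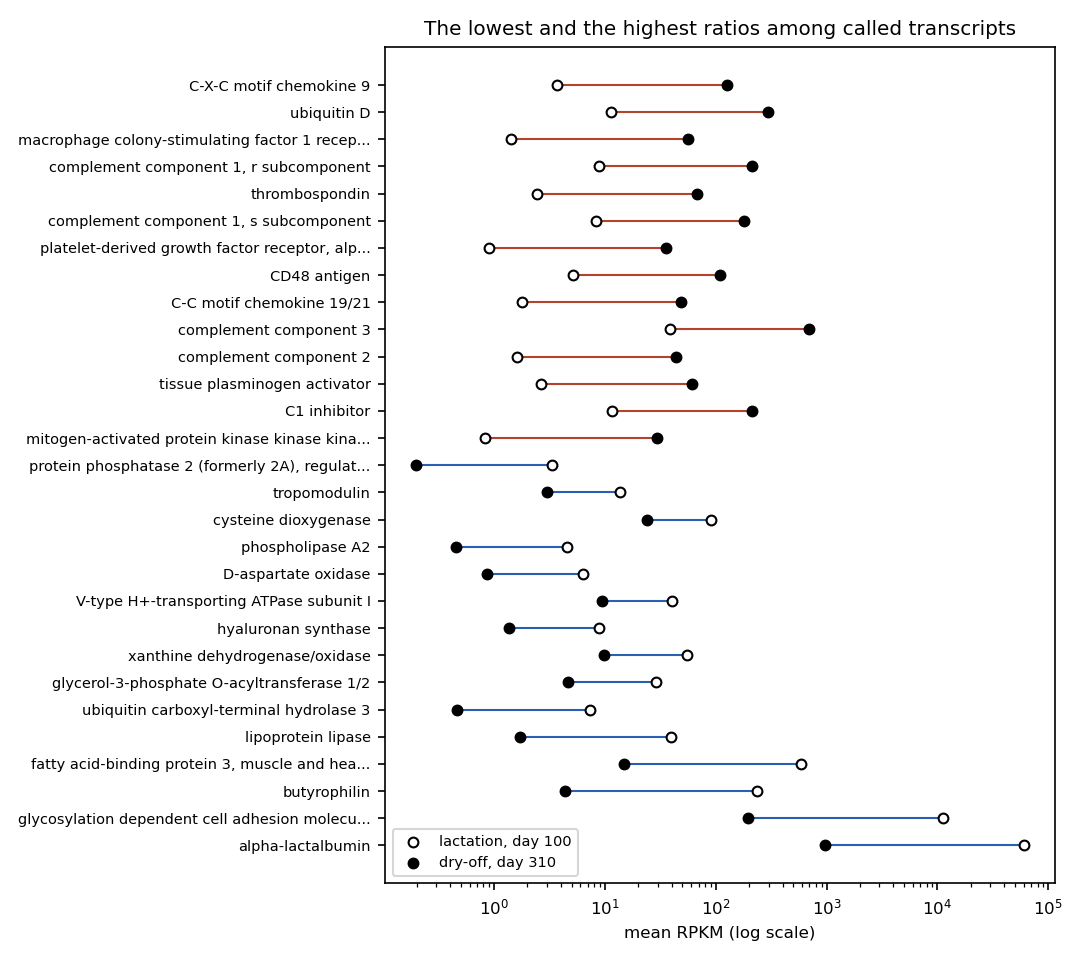
For the 15 lowest and 14 of the 15 highest log2 ratios among called transcripts, with 1 transcript per description, open circles give the lactation mean RPKM and filled circles the dry-off mean RPKM on a log scale. The blue lines run down from levels as high as 60951 RPKM for alpha-lactalbumin, and the red lines run up from at most 39.0 RPKM, the lactation mean of complement C3.

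The lists of the secretory machinery had medians on both sides of the table's. All 18 matched members of endoplasmic reticulum folding and N-glycosylation had higher dry-off means, as did 8889 of all 9131 transcripts. Of the 18, 9 rose, or 50% beside 65.9% of all transcripts tested, and 12 lay above the table median (list median 1.67). Calreticulin, a chaperone of glycoproteins, was at 167 RPKM in lactation against 767 RPKM in dry-off (FDR 0.102 by the authors' deposited table). PDIA3, its disulfide isomerase partner, rose from 49.7 to 281 RPKM (FDR 0.00964 by the authors' deposited table). For translocation into the endoplasmic reticulum, 8 of 13 members rose (61.5%) and 4 lay above the table median. SSR4, a subunit of the translocon-associated complex, was one of the few abundant transcripts with a lower dry-off mean, at 452 RPKM in lactation against 312 RPKM in dry-off (FDR 0.138 by the authors' deposited table). The list of COPI and COPII vesicle proteins matched the coat protein COPA, the GTPases SAR1A and SAR1B and cargo receptors. Of its 7 members 5 were called higher (71.4%), but 6 of the 7 lay below the table median (list median 0.98). Those 6 were on the lower side once centred. Unfolded protein response factors rose in 3 of 8 members (37.5% beside 65.9% of all transcripts tested), and 3 of the 8 lay above the table median. In that list 2 components of the CREB3 family had lower means, 18.1 after 46.8 RPKM and 9.32 after 29.3 RPKM, neither called.

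Protein synthesis lists had medians below that of the table, by a clear margin only for the ribosomal proteins. Of 40 cytosolic ribosomal protein components 17 rose (42.5% beside 65.9% of all transcripts tested) and 1 fell. The median log2 ratio was 0.98 and 5 lay above the table median, so the family was on the lower side once centred. All 44 of its transcripts together held 15.7% of the table's sum in lactation and 20.2% in dry-off. RPS21, of the small subunit, fell from 241 to 115 RPKM (FDR 0.0326 by the authors' deposited table). Initiation and elongation factors rose in 27 of 38 members (71.1%, median 1.45), with 18 above the table median. Aminoacyl-tRNA synthetases, which charge tRNAs, rose in 30 of 52 (57.7%, median 1.40), with 24 above the table median.

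The proteasome, which degrades ubiquitinated proteins, had the largest share of members called among the lists of at least 10. Of 36 members 34 had an FDR below 0.05 by the authors' deposited table, or 94.4% beside 65.9% of all transcripts tested, although the median log2 ratio of 1.61 was close to the table's. The 3 immune core subunits, which replace catalytic subunits in antigen-presenting and interferon-treated cells, stood above the others. Their log2 ratios were 2.69 to 3.64, beside medians of 1.63 for the 13 other core components and 1.55 for the 20 of the 19S particle. PSMB8 rose from 19.3 to 130 RPKM and PSMB10 from 9.55 to 130 RPKM. Ubiquitin D, an interferon-inducible ubiquitin-like modifier, rose from 11.3 to 295 RPKM, 24.1-fold (FDR 0.0467 by the authors' deposited table).

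In energy metabolism the glycolysis list had a higher median than the mitochondrial lists. Glycolytic enzymes rose in 19 of 23 components (82.6% beside 65.9% of all transcripts tested), and 18 lay above the table median (list median 2.17). Glyceraldehyde-3-phosphate dehydrogenase went from 128 to 845 RPKM. Pyruvate kinase, the last step of the pathway, rose from 51.1 to 395 RPKM (FDR 0.00487 by the authors' deposited table). Hexokinases, which trap glucose, rose in 3 of 3 components and 6-phosphofructokinases in 5 of 5. The 3 fructose-bisphosphate aldolase components did not pass; the highest was at 239 RPKM in lactation against 445 RPKM in dry-off. Oxidative phosphorylation rose in 23 of 49 members (46.9% beside 65.9% of all transcripts tested) with a median of 1.08, and 7 lay above the table median. Its 4 mitochondrially encoded members were not called, although cytochrome c oxidase subunit I was at 3344 RPKM in lactation against 6539 RPKM in dry-off (FDR 0.107 by the authors' deposited table). The tricarboxylic acid cycle lay between, with 17 of 22 members called higher (77.3%), 9 above the table median and a list median of 1.39. An aconitase component had a lower mean in dry-off, 28.5 after 54.0 RPKM (FDR 0.0839 by the authors' deposited table).

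Lysosomal proteins were among the larger groups above the table. All 47 matched members had higher dry-off means, as did 8889 of all 9131 transcripts. Of the 47, 35 rose (74.5% beside 65.9% of all transcripts tested) and 37 lay above the table median (list median 2.15). The means of the 47 summed to 617 RPKM in lactation against 2962 RPKM in dry-off. A beta-hexosaminidase, which trims glycolipids and glycans, rose from 4.75 to 94.9 RPKM (FDR 0.00431 by the authors' deposited table). LIPA, the acid lipase that frees cholesterol and fatty acids, rose from 3.12 to 46.1 RPKM (FDR 0.00413 by the authors' deposited table). Cathepsin B, a broad cysteine protease, rose from 28.4 to 256 RPKM, and cathepsin S, active in antigen presentation, from 2.62 to 35.6 RPKM. Cathepsin K, known from bone resorption, was at 5.62 RPKM in lactation against 93.6 RPKM in dry-off without passing (FDR 0.0832 by the authors' deposited table).

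Autophagy and cell death lists had medians closer to that of the table. Of 15 autophagy members 11 rose (73.3% beside 65.9% of all transcripts tested) and 9 lay above the table median (list median 1.66). Beclin 1, which nucleates autophagosomes, rose from 7.29 to 31.9 RPKM. Of 27 apoptosis members 17 rose (63.0% beside 65.9% of all transcripts tested) and 18 lay above the table median (list median 1.78). The members included both promoters and inhibitors of death. Caspase 7, an executioner protease, rose from 0.928 to 4.46 RPKM. MCL1, which blocks mitochondrial death, rose from 14.3 to 75.7 RPKM, and an inhibitor of apoptosis of the BIRC2/3/4 description from 1.48 to 14.1 RPKM. BAX, the pore former, was at 4.03 and 38.3 RPKM (FDR 0.0530 by the authors' deposited table).

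Complement had a list median of 3.06, and 19 of its 22 members lay above the table median. Of the 22, 17 were called higher by the authors' deposited table, or 77.3% beside 65.9% of all transcripts tested. C3, on which the pathways converge, rose from 39.0 to 687 RPKM (FDR 0.00912 by the authors' deposited table). The C1 proteases C1R and C1S, which start the classical pathway, rose from 8.92 to 210 RPKM and from 8.33 to 181 RPKM. Their inhibitor rose with them, from 11.6 to 211 RPKM with a log2 ratio of 4.07. C9, which forms the membrane pore, went the other way, at 22.1 RPKM in lactation against 0.581 RPKM in dry-off, with an FDR of 0.0739 by the authors' deposited table.

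Of 19 listed chemokines and receptors, 18 lay above the table median and 8 were called higher (list median 3.21), which is 42.1% beside 65.9% of all transcripts tested. CXCL5/6, which fell, is not on that list. CXCL9, a T cell attractant induced by interferon-gamma, had the highest log2 ratio of all called transcripts, 4.75, from 3.70 to 125 RPKM (FDR 0.0181 by the authors' deposited table). CXCL12, a stromal homing signal, rose from 14.6 to 254 RPKM. CCL19/21, which guides dendritic cells and naive lymphocytes, rose in one component from 1.77 to 48.3 RPKM, and another at 7.66 and 152 RPKM did not pass (FDR 0.0961 by the authors' deposited table). The B cell attractant CXCL13 was at 0.294 and 26.2 RPKM (FDR 0.102 by the authors' deposited table). CCL27/28, whose member CCL28 draws IgA plasma cells to the lactating gland in mice, was at 2.46 RPKM in lactation against 0.811 RPKM in dry-off (FDR 0.144 by the authors' deposited table).

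Antibody and antigen-presentation transcripts made up more of the dry-off total. The 7 immunoglobulin transcripts summed to 1782 RPKM in lactation (1.07% of the table) and 20664 RPKM in dry-off (7.99%), yet 1 of the 7 was called. Heavy chain transcripts of 2 components were at 211 and 5332 RPKM and at 173 and 4529 RPKM, with FDR of 0.135 and 0.129 by the authors' deposited table. MHC class II and CD74, its invariant chain, went from 456 RPKM (0.273%) to 6475 RPKM (2.50%) over 18 transcripts, 17 of them called. MHC class I transcripts summed to 208 and 2369 RPKM, with 3 of 4 called. Near-identical family members share reads, so the split among these transcripts is uncertain. The largest rises in RPKM that were called outside immune genes included ubiquitin C, from 1126 to 4162 RPKM, while ferritin heavy chain, the iron store, was at 836 and 4355 RPKM without passing (FDR 0.0606 by the authors' deposited table).

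**Figure D4:**
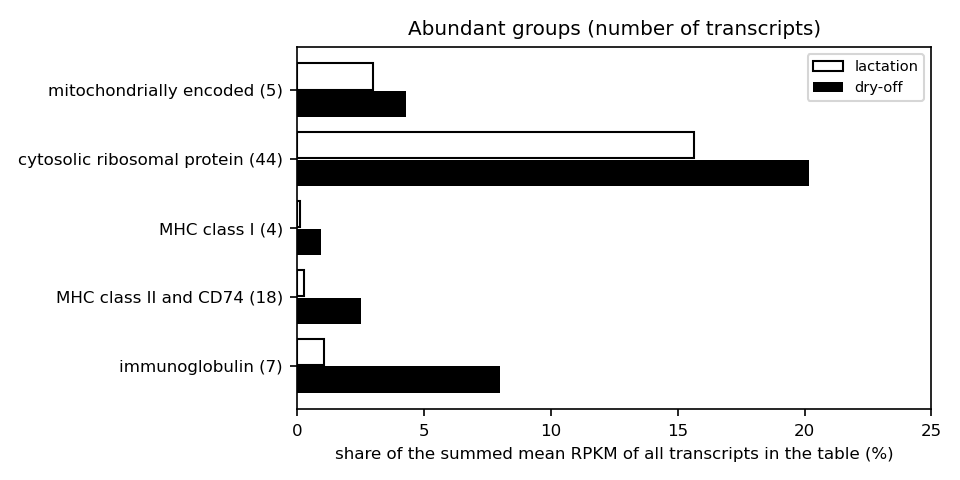
Bars give the share of the table's summed means held by each group of transcripts in lactation (open) and dry-off (filled), in percent; the number of transcripts is in brackets. Immunoglobulin transcripts went from 1.07% to 7.99% and cytosolic ribosomal proteins from 15.7% to 20.2%. In lactation 3 transcripts held 49.9% of the sum, so the shares of all other groups depend on them.

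Of 23 innate sensors and signalling members 20 rose, or 87.0% beside 65.9% of all transcripts tested. Of the 23, 15 lay above the table median (list median 1.66). TLR3, a sensor of double-stranded RNA, rose from 1.12 to 10.4 RPKM, and NFKB2, of the noncanonical NF-kappaB pathway, from 2.73 to 17.2 RPKM. TLR3 had 3 transcripts in 3 components, and the one of highest mean stands for it. CD14, which presents bacterial lipopolysaccharide, rose from 14.96 to 49.2 RPKM.

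All 52 matched matrix members had higher dry-off means, as did 8889 of all 9131 transcripts. Of the 52, 27 rose, or 51.9% beside 65.9% of all transcripts tested, and 41 lay above the table median (list median 2.10). Fibrillar collagens rose in 5 of 7 components, the highest from 29.3 to 262 RPKM (FDR 0.00747 by the authors' deposited table). Neither collagen IV component, of the basement membrane, passed; they were at 11.4 and 35.2 RPKM and at 11.2 and 26.5 RPKM. Laminins, also of the basement membrane, rose in 7 of 13 components. Thrombospondin, a matrix glycoprotein, rose from 2.42 to 67.2 RPKM.

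Of 17 matrix proteases and inhibitors 6 rose, or 35.3% beside 65.9% of all transcripts tested, and 15 lay above the table median (list median 2.30). Tissue plasminogen activator rose from 2.65 to 60.9 RPKM (FDR 0.00424 by the authors' deposited table), and urokinase and its receptor rose from 2.59 to 22.03 RPKM and from 2.01 to 14.4 RPKM. Tissue plasminogen activator and urokinase turn plasminogen into plasmin. ADAM10 and ADAM17, which shed cell surface proteins, rose from 2.36 to 17.2 RPKM and from 5.38 to 16.006 RPKM, and the metalloproteinase MMP7 rose from 0.882 to 7.89 RPKM. MMP2, a gelatinase, was at 42.03 RPKM in lactation against 352 RPKM in dry-off (FDR 0.101 by the authors' deposited table). MMP14, which activates MMP2, was at 7.14 and 102 RPKM (FDR 0.117 by the authors' deposited table). MMP9, ADAMTS4 and ADAMTS5 were listed at 0 in lactation and at 6.51, 3.04 and 4.94 RPKM in dry-off, and none was called.

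Of 53 TGF-beta, Wnt and Notch members 41 rose, or 77.4% beside 65.9% of all transcripts tested, and 1, WNT5, fell. In all, 37 lay above the table median (list median 1.89). The Wnt receptor FZD1 rose from 1.13 to 28.9 RPKM (FDR 0.00431 by the authors' deposited table). Jagged, a Notch ligand, rose from 2.11 to 16.5 RPKM, and the inhibitory SMAD6/7 from 0.382 to 3.61 RPKM.

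All 25 matched members of prolactin and growth hormone signalling had higher dry-off means, as did 8889 of all 9131 transcripts. Of the 25, 19 rose (76% beside 65.9% of all transcripts tested), and 19 lay above the table median (list median 2.21). The prolactin receptor, through which lactation is maintained, rose from 0.709 to 2.27 RPKM, a log2 ratio of 0.94 that lay below the table median, so it was on the lower side once centred (FDR 0.0492 by the authors' deposited table). STAT5A and STAT5B, its main transcription factors in the gland, were at 7.45 and 18.5 RPKM and at 13.1 and 36.8 RPKM, neither called. From the myoepithelial list, the oxytocin receptor, which drives milk ejection by myoepithelial cells, was at 1.18 and 0.892 RPKM (FDR 0.696 by the authors' deposited table). LIFR and OSMR, cytokine receptors of the IL6 family, rose from 0.624 to 7.26 RPKM and from 1.4997 to 27.7 RPKM. LIFR had 8 transcripts in 8 components, and the one of highest mean stands for it. IGFBP3, a binding protein of insulin-like growth factors, rose from 15.7 to 245 RPKM (FDR 0.0474 by the authors' deposited table).

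Nuclear receptors rose in 12 of 21 members (57.1% beside 65.9% of all transcripts tested), and 8 of the 21 lay above the table median (list median 1.30). RARA, a retinoic acid receptor, rose from 7.77 to 43.0 RPKM (FDR 0.00346 by the authors' deposited table), and NR2F2, an orphan receptor of stroma and vessels, from 2.42 to 27.9 RPKM. The vitamin D receptor was at 13.8 RPKM in lactation against 13.1 RPKM in dry-off (FDR 0.872 by the authors' deposited table). Thyroid hormone receptor THRB was at 3.11 and 2.76 RPKM (FDR 0.364 by the authors' deposited table). Both were thus well below the table median of 1.47.

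Insulin and mTOR signalling rose in 27 of 42 members (64.3% beside 65.9% of all transcripts tested), with 26 above the table median (list median 1.68). DDIT4, a stress-induced inhibitor of mTOR complex 1, rose from 10.4 to 57.8 RPKM (FDR 0.00404 by the authors' deposited table), and p70 S6 kinase, a target of that complex, from 4.16 to 13.5 RPKM. EIF4EBP1, a translation repressor, was the 1 member that fell, from 104 to 63.1 RPKM.

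Mineral transport held members with large differences either way. Of 27 members 12 rose (44.4% beside 65.9% of all transcripts tested) and 1 fell, 5 had lower dry-off means, and 16 lay above the table median. Besides the Ca2+-transporting ATPase given above, a plasma membrane Ca2+ ATPase component was at 5.23 RPKM in lactation against 1.08 RPKM in dry-off (FDR 0.111 by the authors' deposited table), while another of the family rose from 2.23 to 14.1 RPKM. Calcium pumps carry calcium into milk. Antioxidant enzymes rose in 11 of 19 members (57.9%), with 14 above the table median (list median 1.81). Catalase rose from 8.08 to 35.5 RPKM.

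Replication members rose in 16 of 23 (69.6% beside 65.9% of all transcripts tested), and 18 lay above the table median (list median 1.91). POLA2, a subunit of DNA polymerase alpha, went from 1.48 to 16.1 RPKM. It had 4 transcripts in 4 components, and the one of highest mean stands for it. Heat shock proteins rose in 13 of 24 (54.2% beside 65.9% of all transcripts tested), and 20 lay above the table median (list median 1.73). Tight junction proteins, which seal the milk space, rose in 6 of 10 (60%), with 5 above the table median (list median 1.56). JAM3 was at 14.1 and 5.82 RPKM (FDR 0.143 by the authors' deposited table).

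Markers of the cell types that a whole gland can hold were read as summed levels, and the labelled tissue was checked against its own. Alpha-lactalbumin, keratins and E-cadherin were present in both stages. The 20 luminal epithelial members summed to 664 RPKM in lactation against 2611 RPKM in dry-off. Of the 20, 15 rose (75% beside 65.9% of all transcripts tested) and 1 fell, with 15 above the table median (list median 1.71). The falling one was ELF3/5, a description that includes ELF5, the transcription factor of milk-producing alveolar cells; it fell from 81.9 to 24.8 RPKM (FDR 0.0314 by the authors' deposited table). A second ELF3/5 component rose from 5.48 to 17.3 RPKM, and the description cannot say which gene is which. Most of the luminal sums came from 5 type I keratin components (214 and 721 RPKM) and 7 type II keratin components (307 and 1670 RPKM). Those descriptions name no keratin gene and can include KRT5 and KRT14, which are on the myoepithelial list. The summed rise is therefore not particular to luminal cells.

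Matched markers of leukocytes, fibroblasts and endothelium had the higher mean in dry-off, as did 8889 of all 9131 transcripts. Of 21 macrophage markers 20 lay above the table median, as did 10 of 10 for T and NK cells, 6 of 6 for B and plasma cells, 1 of 2 for neutrophils, 7 of 7 for fibroblasts and 9 of 10 for endothelium. Macrophage markers summed to 85.6 RPKM in lactation against 831 RPKM in dry-off (median 2.82). Of the 21, 12 were called higher, which is 57.1% beside 65.9% of all transcripts tested. Of these members 9 were components described as mannose receptor and 2 as lysozyme. T and NK cell markers summed to 19.9 and 313 RPKM (4 of 10 called, or 40%, median 3.33). B and plasma cell markers summed to 4.30 and 67.6 RPKM (2 of 6 called, or 33.3%, median 2.72). Both neutrophil markers, MMP9 and CSF3R, were low in either stage and not called, with MMP9 listed at 0 in lactation. Fibroblast markers summed to 239 and 1829 RPKM (5 of 7 called, or 71.4%, median 3.09), and THY1 rose from 8.36 to 78.5 RPKM. Endothelial markers summed to 73.8 and 469 RPKM (6 of 10 called, or 60%, median 2.29), and VWF, of vessel walls, rose from 6.77 to 85.5 RPKM. Myoepithelial and smooth muscle markers summed to 326 and 887 RPKM (3 of 8 called, or 37.5%). Of these, 6 lay above the table median (list median 1.81), and the oxytocin receptor had the lower mean in dry-off. Desmin, a muscle filament, rose from 8.30 to 59.2 RPKM and is also on the skeletal muscle list, whose other matched member, TNNT3, was at 0.439 and 7.28 RPKM without passing. Of the adipocyte markers 2 matched, LIPE and PPARG, and both rose, 1 of them above the table median. No member was matched for erythrocytes. These marker sums moved with the complement, chemokine, lysosomal and matrix groups above, and their part in those results was not tested. The lists are not separate, as decorin (43.5 and 614 RPKM) is on both the fibroblast and the matrix list.

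**Figure D5:**
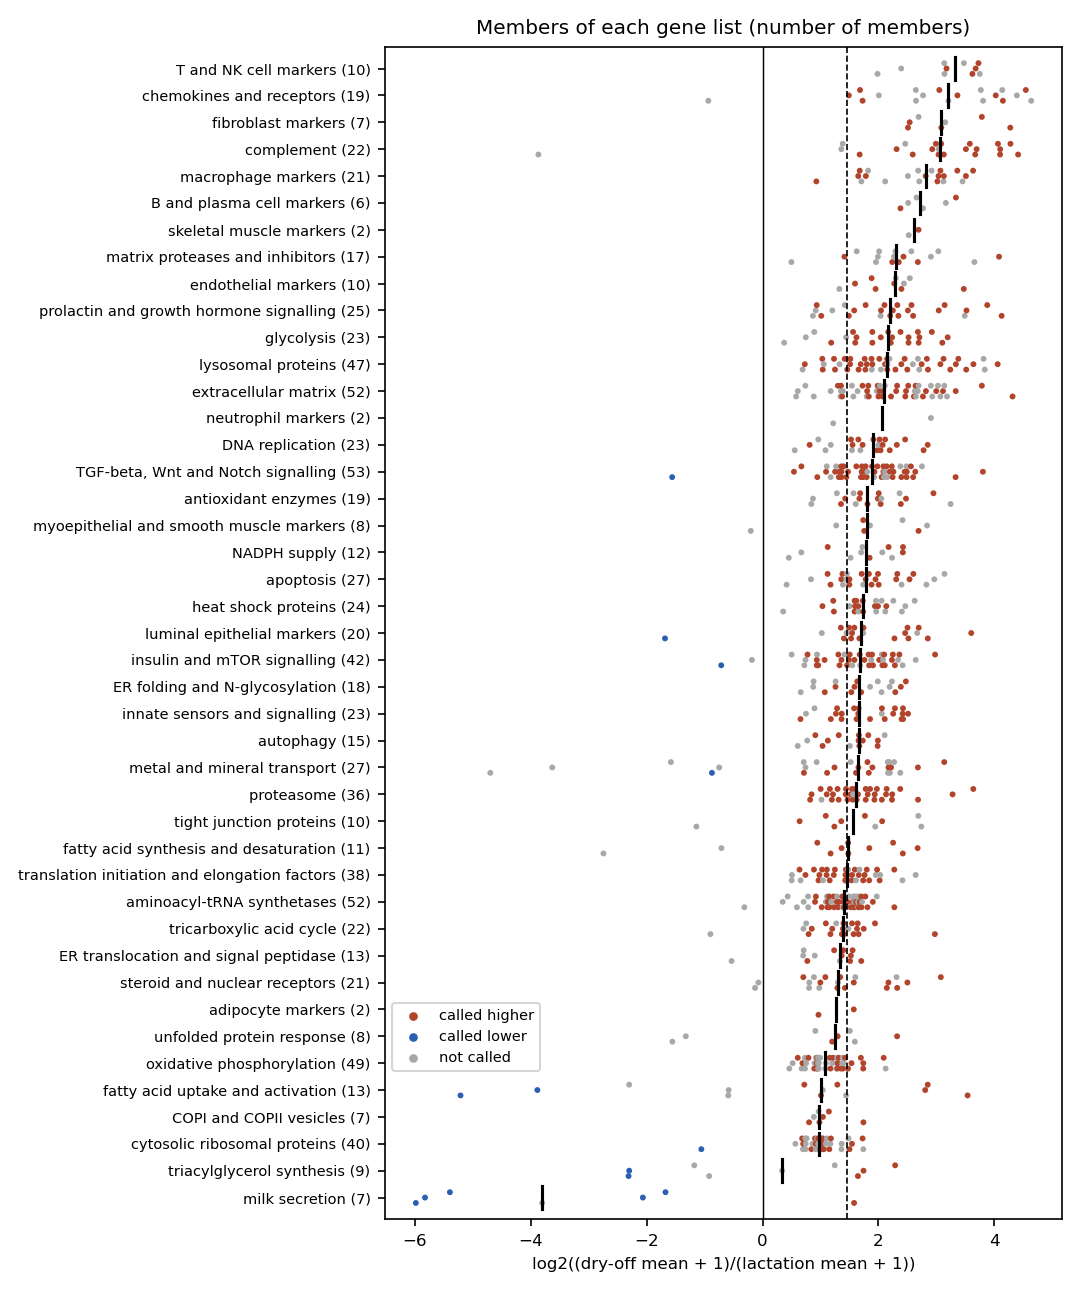
Each point is a list member with its log2((dry-off mean + 1)/(lactation mean + 1)) on the x axis, coloured by the authors' call, and the black bar is the list's median; the dashed line is the table median of 1.47 and the solid line is 0. T and NK cell markers (3.33), chemokines (3.21) and fibroblast markers (3.09) are at the top, and milk secretion (−3.80) is at the bottom.

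Across the 43 lists with matched members, 30 medians lay above the table median and 13 below it, 1 of these below 0. The lists were chosen with earlier results of these data known, so these positions describe the data and carry no test. A list keeps the transcript of highest mean, while the table median covers every transcript, so unlike sets are compared.

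Pathways in the authors' deposited pathway table gave a like order in part. Over its 173 transcripts the lysosome pathway had a median of 1.38, below the table's, against 2.15 for the lysosomal list. Regulation of autophagy had 1.32 against 1.66 for its list, and glycolysis 1.56 against 2.17. With 1 transcript per component these pathway medians were 1.63, 1.66 and 1.73. Of 197 pathways with at least 10 members, 137 had a median log2 ratio above that of the table, and 47 held any transcript called lower. The highest medians belonged to autoimmune thyroid disease and allograft rejection, both 3.40 over 32 transcripts with 22 rises (68.75%). Such disease pathways are filled by antigen presentation and lymphocyte genes. Complement and coagulation cascades had 37 rises among 53 (69.8%, median 2.46), and its 3 lower means were all C9 transcripts. ECM-receptor interaction had 74 rises among 125 (median 2.17), or 59.2% beside 65.9% of all transcripts tested. Glycerolipid metabolism had 21 rises (42%) and 6 falls among 50 transcripts (median 0.96). For glycerophospholipid metabolism there were 39 rises (48.1%) and 6 falls among 81 (median 1.10).

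Single assembled components filled some pathways. Thiamine metabolism had the lowest median (0.17) with 22 of 22 transcripts called, but 21 of these were isoforms of one component. That component has 27 transcripts in the table under 2 descriptions, most of them thiamine-triphosphatase, and over all 27 the means ran from 0.106 to 0.149 RPKM in lactation and from 0.233 to 0.357 RPKM in dry-off. Systemic lupus erythematosus held 25 lower means among 98 transcripts, and one component described as the low affinity IgG Fc receptor IIa has 24 transcripts in the table, none called. In all, 45 components with 10 or more transcripts held 716 transcripts, 562 of them called, and transcripts of one component share reads.

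In 2 components called transcripts went in opposite directions. One, described as adenosylhomocysteinase, the enzyme that clears S-adenosylhomocysteine after methylation, had a transcript that fell from 8.77 to 4.41 RPKM and another that rose from 6.34 to 23.8 RPKM, with FDR of 0.0325 and 0.00866 by the authors' deposited table. The other, described as the histone deubiquitinase USP3, had a transcript that fell from 7.31 to 0.463 RPKM (FDR 0.0497 by the authors' deposited table), while 3 others of that description rose, among them one from 2.02 to 6.53 RPKM. The same component also held a transcript described as ubiquitin related modifier 1, which rose from 6.06 to 17.3 RPKM.

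The smallest FDR values of the comparison belonged to transcripts of low level. Sestrin, a stress-induced regulator of mTOR and redox balance, rose from 0.727 to 10.03 RPKM, a protein-tyrosine phosphatase from 0.799 to 9.61 RPKM, and the corepressor scaffold Sin3a from 0.827 to 6.97 RPKM. Their FDR by the authors' deposited table were 0.000805, 0.000805 and 0.000943. Several deubiquitinase transcripts described as USP4/11/15, all of one component, were in the same range, one of them rising from 0.885 to 3.96 RPKM.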

How the data were processed

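Poly(A)-selected RNA was sequenced single-end, per the labels. The authors deposited mean RPKM per stage and, for each pair of stages, a p-value and an FDR, per the file headers. Of tools, the submitters' processing notes name FastQC alone. Neither labels nor headers state how transcripts were assembled, aligned, counted or tested, or on which build. The deposited log2 columns held spreadsheet errors and gave the stage named second over the stage named first, so log2 ratios were recomputed from the means with a pseudocount of 1. In all, 2 transcripts without a p-value were not tested. Depth per sample is unknown. Transcripts of one component, like those of near-identical genes, share reads.

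Samples were grouped by source name. Genes were identified by the wording of the authors' descriptions, matched after the tables had been opened. The transcript of highest mean stood for a gene, and family descriptions counted once per component. In all, 385 of 807 listed symbols were matched. The members and lists were chosen with earlier results of these data known. The naming rule took the 15 highest and 15 lowest called ratios, the 10 largest rises and falls in RPKM, the 10 smallest FDR, up to 4 members of each list by FDR with any lower ones, and opposite isoforms. All transcripts called lower, those at least 4-fold lower but not called, and further members named for their role were added after their values were seen. No set test was run. Some genes under the rule are not reported here. Alternatives were an FDR below 0.01, the unadjusted p, a 2-fold minimum, a pseudocount of 0.1, a minimum of 1 RPKM, 1 transcript per component and centring on the table median. The scripts were tested on simulated data. Python 3.11.15, numpy 2.4.6, pandas 2.3.3 and matplotlib 3.10.9 were used.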

Additional observations from a re-analysis of the deposited data

How the results depend on the processing

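Of the 6016 transcripts called higher and 63 called lower, 1494 and 11 remained at an FDR below 0.01; the list members called (554 and 14) came to 156 and 3, and the pathway members (3289 and 40) to 853 and 8. Centring on the table median put 3225 called transcripts on the higher and 2853 on the lower side, with 187 list members on the lower side. For pathway members the counts were 1883 and 1445. The calls were the authors' uncentred ones, so most of those on the lower side had been called higher, and none was tested against the median. The unadjusted p below 0.05 gave 118 lower transcripts and 71 lower pathway members, and 1 transcript per component gave 40 and 25. Leaving out the 3 most abundant lactation transcripts moved the share of the top 10 from 56.9% to 18.04% in lactation and from 16.8% to 16.9% in dry-off. A mean of at least 1 RPKM and at least 2-fold kept the counts over all transcripts, lists and pathways within 1.5 times. A pseudocount of 0.1 could not change any count, since calls rest on the authors' FDR and direction on which mean is higher. For single lists, 47 of 86 counts moved by more at the stricter FDR, 45 on centring, 18 with the unadjusted p and 6 at 2-fold or more. Only stage means were used, so leaving out each replicate was not run. No paired analysis was possible because the columns carry means of each stage and no replicate number.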
